A study of Mus musculus with 16 samples.

Results

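The nuclear genes of oxidative phosphorylation were followed through the growth of the mouse epididymis, by complex. Members were all genes whose annotated symbol begins with Nduf, Uqcr or Atp5, or with Cox followed by 4, 5, 6, 7 or 8, together with Cycs and the succinate dehydrogenase genes Sdha, Sdhb, Sdhc and Sdhd. The rule used names and no measured value. It took 91 of the 18193 genes that had a probe set with 1 symbol, and 83 of the 91 were bright enough to be tested among 12239 genes. The 91 were 34 subunits and 8 assembly factors of complex I, 4 subunits of complex II, 8 of complex III, cytochrome c, 10 broadly expressed subunits and 8 tissue or oxygen-related isoforms of complex IV, the supercomplex factor Cox7a2l, and 17 subunits of complex V.

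Oxidative phosphorylation takes place in the inner mitochondrial membrane. Complex I (NADH dehydrogenase) and complex II (succinate dehydrogenase) pass electrons through ubiquinone to complex III, soluble cytochrome c carries them to complex IV (cytochrome c oxidase), and the proton gradient built on the way drives ATP synthesis by complex V. Most subunits are encoded in the nucleus, some core subunits of complexes I, III, IV and V in mitochondrial DNA, and several complex IV subunits exist in a broad form and in a form of heart and skeletal muscle, lung, testis or low oxygen.

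RNA of whole epididymides, excised from wild-type CD-1 males, was measured on Affymetrix arrays before birth on gestational days 12, 14, 16 and 18 (written gd12 to gd18) and after it on postnatal day 2 (pnd2), with 3 arrays per stage. The labels place these at Theiler stages 20, 22, 24, 26 and 27. They mark the gd12 and gd14 samples as pools of 3 and the other stages as not pooled, whereas the design text gives each sample as the pair of organs of 1 animal, so by the labels pooling and stage cannot be told apart where gd16, gd18 or pnd2 is set against gd12 or gd14. One further array held RNA of 8 pooled wild-type whole newborns of both sexes at postnatal day 0.5. Signals are on a linear scale on which each array's trimmed mean is 500, and signals of different genes are not compared, since each probe set has its own brightness.

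Replicate 3 of pnd2 stood apart, with a median signal of 81.24, where the other 15 of 16 arrays had 110.3 to 134. On that array the 3' probe set of Gapdh was 63.16 times as bright as the 5' one, against 4.333 to 7.18 on the other 14 epididymis arrays, and that of Actb 80.73 times, against 2.404 to 4.141. On pnd2 replicate 2, 14 of 18 skeletal and heart muscle markers lay at or above the array's median, and their summed signal was 18912, against 1045 to 2705 on the other 14. Counts below are therefore also given without pnd2 replicate 3 where that moves them by over 1.5 times. Epididymal epithelium markers were set beside the organ label: 8 to 10 of 14 lay at or above the median at gd12 and 12 of 14 at pnd2. Their summed signals were 6497 to 10711 at gd12 and 39129.7 to 45651 at pnd2. The whole newborn pool had 9 of 14 and a summed signal of 21745, above all gd12 arrays. These markers therefore cannot check the organ at gd12.

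Promoters are shown first because many members share the same short motifs there. RefSeq windows of 300 bases (250 before and 50 after the start of the gene, GRCm38.p6) were at hand for 75 of the 91 members. The core of the site of NRF1, a regulator of respiratory genes, GCGCATGCG, was found on either strand in 13.3% of these members and in 1.95% of all 27025 genes with a window. The ETS/GABP motif CCGGAAG was in 25.3% of members and 9.93% of all genes, and the YY1 motif AAGATGGCG in 9.33% and 1.64%. Any of the 3 was in 30 of the 75 (40%), against 12.7% of all genes with a window. The NRF1 letters nearly equal their own reverse complement, so matches on the 2 strands can overlap and were counted once per gene. The 170 bases before the start are printed 5' to 3' on the strand of the gene for members described below, with matches in capitals. Cycs at chr6:50566570-50566739 (minus strand) and Cox6a1 at chr5:115348959-115349128 (minus strand) carry the NRF1 letters, and Cox6a1, Ndufb7 at chr8:83566588-83566757 (plus strand), Uqcr11 at chr10:80406822-80406991 (minus strand), Sdhd at chr9:50603850-50604019 (minus strand) and Atp5j at chr16:84834977-84835146 (minus strand) the ETS letters. In Uqcr11 the NRF1 letters also occur, across the start of the gene and so outside the printed stretch. Atp5j also holds the YY1 letters, and Cox8b, a muscle form of a complex IV subunit at chr7:140900447-140900616 (minus strand), holds none of the 3 in its window.
Cycs: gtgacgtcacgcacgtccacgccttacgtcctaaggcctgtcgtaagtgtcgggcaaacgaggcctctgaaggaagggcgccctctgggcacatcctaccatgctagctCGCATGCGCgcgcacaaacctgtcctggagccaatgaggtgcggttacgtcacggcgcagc
Cox6a1: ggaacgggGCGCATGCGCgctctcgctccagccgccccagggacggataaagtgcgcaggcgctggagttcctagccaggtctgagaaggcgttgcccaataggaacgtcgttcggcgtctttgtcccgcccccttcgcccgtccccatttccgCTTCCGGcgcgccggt
Ndufb7: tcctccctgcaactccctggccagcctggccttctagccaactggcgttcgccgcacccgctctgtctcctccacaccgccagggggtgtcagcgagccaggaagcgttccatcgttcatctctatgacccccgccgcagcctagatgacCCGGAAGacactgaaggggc
Uqcr11: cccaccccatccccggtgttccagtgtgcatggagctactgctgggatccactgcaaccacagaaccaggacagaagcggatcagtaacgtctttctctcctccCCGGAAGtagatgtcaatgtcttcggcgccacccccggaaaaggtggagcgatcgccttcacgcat
Sdhd: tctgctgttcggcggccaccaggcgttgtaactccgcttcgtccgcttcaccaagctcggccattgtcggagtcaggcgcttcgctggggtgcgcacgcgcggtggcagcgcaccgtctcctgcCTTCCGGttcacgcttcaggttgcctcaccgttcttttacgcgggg
Atp5j: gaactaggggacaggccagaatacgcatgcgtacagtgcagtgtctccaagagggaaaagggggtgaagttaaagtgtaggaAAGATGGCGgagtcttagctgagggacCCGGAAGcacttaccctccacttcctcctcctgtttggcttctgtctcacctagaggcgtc
Cox8b: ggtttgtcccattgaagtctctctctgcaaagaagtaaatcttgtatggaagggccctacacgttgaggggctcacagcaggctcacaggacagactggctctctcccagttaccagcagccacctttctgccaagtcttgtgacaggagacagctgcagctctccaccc
A match describes letters and was not tested as a binding site. The arrays hold no measure of binding.

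Across the 5 stages the members as a group were high at gd12, lowest at gd16 and high again at pnd2. Of the 83 tested, 37 had their highest stage mean at gd12 (44.6%, against 31% of all genes) and 42 at pnd2 (50.6%, against 25.2%), and 59 had their lowest at gd16 (71.1%, against 15% of all genes tested). Without pnd2 replicate 3 the highest mean was at gd12 in 48 (57.8%, against 32.6% of all genes) and at pnd2 in 27 (32.5%, against 23.6%), and the lowest at gd16 in 61 (73.5%, against 17.7%). The 72 tested subunits and cytochrome c took 2.626, 2.586 and 2.445% of the summed signal of all genes tested on the gd12 arrays and 1.947, 2.024 and 1.921% at gd16. At pnd2 the shares were 2.387, 2.422 and, on replicate 3, 3.078%. The gd16 arrays did not overlap those of gd12, gd14, gd18 or pnd2 in this share. In bulk RNA, fewer cells of a type and less RNA per cell cannot be told apart.

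**Figure D1:**
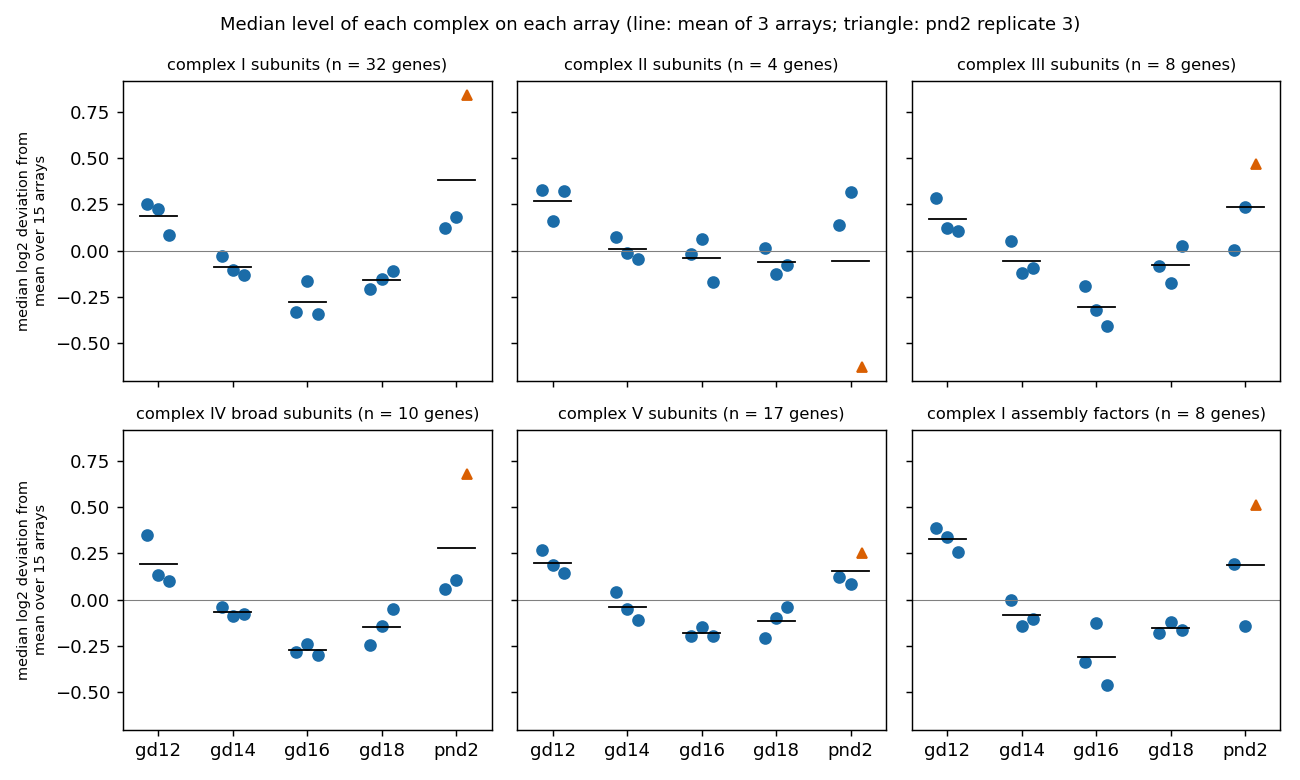
Median log2 deviation of each complex's tested genes from their mean over 15 arrays (y axis) on each array, by stage (x axis); circles are arrays, lines the mean of 3 arrays, and triangles pnd2 replicate 3. Complex I lies between -0.34 and -0.16 on the gd16 arrays and between 0.08 and 0.25 at gd12; on pnd2 replicate 3 it is at 0.84 and complex II at -0.63.

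By limma with Benjamini-Hochberg adjustment over all genes, 6 members fell and 0 rose from gd12 to gd14, where 5.74% of all genes fell and 6.71% rose. The 6 were Ndufs1, Ndufs3, Ndufaf6, Sdha, Cycs and Atp5c1. The median change of the members was -0.29 on the log2 scale and 71 of 83 were negative, against a median of 0.03 over all genes tested. In 43 members the 3 gd14 arrays all lay below the 3 gd12 arrays, as they did in 20.6% of all genes. Without pnd2 replicate 3, which enters only through the shared estimate of spread, 32 members fell (14.1% of all genes fell), and the 6 were among them. Leaving out any 1 of the gd12 or gd14 arrays left 2 or 3.

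From gd14 to gd16, 0 members passed the limma test, at 0.049% of all genes lower and 0.0572% higher, although 73 of 83 changes were negative, with a median of -0.17 against -0.03 over all genes. At an unadjusted p under 0.05 it takes 8 members lower and 0 higher, and 5.97% of all genes in either direction. Ndufb7 and Uqcrq, a small subunit of complex III, fell in this interval without pnd2 replicate 3 (0.449% of all genes fell). From gd16 to gd18 a single member, Ndufa12, rose (0.237% of all genes rose and 0.0899% fell), the median change was 0.11, and 67 of 83 were positive. That call was lost without gd16 replicate 7, gd16 replicate 9 or any 1 of the gd18 arrays.

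From gd18 to pnd2 a single member, Cycs, rose (0.261% of all genes rose and 0.335% fell), with a median change of 0.41 and 72 of 83 positive, against a median of -0.05 over all genes. In 35 members the 3 pnd2 arrays all lay above gd18, as they did in 10.3% of all genes. Fitted without pnd2 replicate 3, 4 members rose, Cycs, Ndufb7, Ndufb9 and Ndufs8 (0.833% of all genes), and the member median was 0.24. Without pnd2 replicate 1 or 2 the count was 5 or 6, and without any 1 of the 12 earlier arrays it was 0. With all arrays, the probe sets of Ndufs8 differ in direction over this interval, as given below.

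From gd12 to gd18, 17 members fell and 0 rose, where 10.2% of all genes fell and 12.7% rose. This comparison shares the gd12 arrays with gd14 against gd12. With pnd2 replicate 3 left out it was 42 lower (20.1% of all genes) and 1 higher (20.7%), Cox6b2, and without gd12 replicate 14, gd18 replicate 4 or gd18 replicate 5 the calls came to 10, 11 and 10. Between gd12 and pnd2, 5 members were higher (14.4% of all genes) and 2 lower (13.1%). This became 5 higher and 13 lower (18.7 and 17%) without pnd2 replicate 3, and 5 of the 7 were called both times. The count was 15 and 11 without pnd2 replicates 1 and 2, and 3 and 1 without gd12 replicates 14 and 15. An F test across all 5 stages called 28 of 83 members (33.7%) and 26.5% of all genes, 50 without pnd2 replicate 3 (45.7% of all genes) and 18 without gd12 replicate 14 or gd16 replicate 9.

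**Figure D2:**
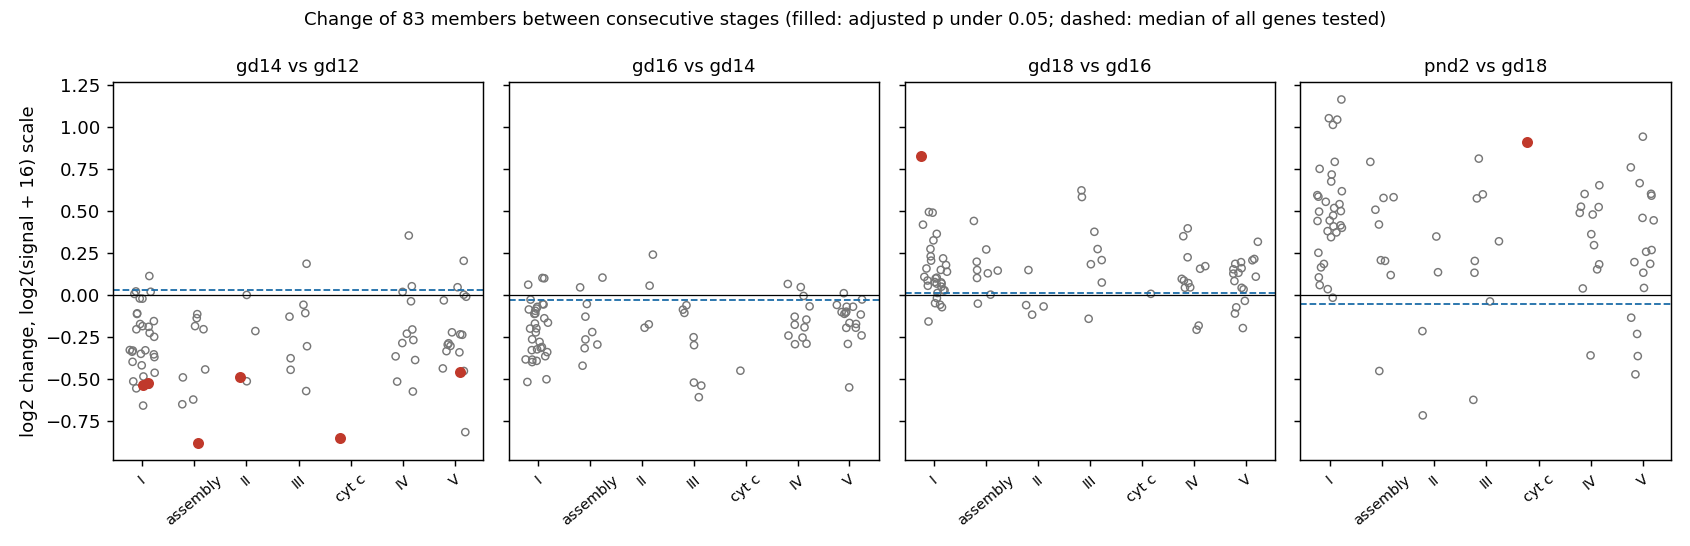
Log2 change of the 83 tested members (y axis) between consecutive stages, 1 panel per interval, by complex (x axis; IV includes its isoforms and Cox7a2l); filled points passed the test and dashed lines are medians of all genes tested. Most points lie below 0 in the first 2 panels (71 and 73 of 83) and above 0 in the last 2 (67 and 72 of 83).

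Complex I moves electrons from NADH through a flavin and a chain of iron-sulphur clusters in its core subunits, which accessory subunits surround. All 6 tested core subunits were lower at gd14, gd16 and gd18 than at gd12. From gd12 to gd18, 3 of 6 fell (Ndufs1, Ndufs3 and Ndufs8), where 10.2% of all genes fell. Without pnd2 replicate 3 it was 6 of 6, where 20.1% of all genes fell. Ndufs1, the largest iron-sulphur subunit, had signals of 3852, 3569 and 3602 at gd12, 2556, 2577 and 2519.7 at gd14, 2526, 2303 and 2346 at gd16, 2199.7, 2017 and 2214 at gd18 and 2195, 2378 and 3186 at pnd2. All 12 later arrays lay below all 3 of gd12. Its changes were -0.52 ± 0.15 (SE, adjusted p = 0.0304) at gd14 and -0.77 ± 0.15 (SE, adjusted p = 0.00163) at gd18, and at pnd2 it was still lower than at gd12, with a change of -0.52 ± 0.15 (SE, adjusted p = 0.0167).

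Ndufs3 gave 4085, 4017 and 3985 at gd12 and 2893, 3007 and 2475 at gd14, with no overlap, a change of -0.53 ± 0.16 (SE, adjusted p = 0.0473) that was not called in 15 of 25 alternative analyses. Ndufs8, which carries 2 of the iron-sulphur clusters, went from 5149, 4312 and 4465 at gd12 to 2919.9, 3184 and 3231 at gd18, a change of -0.57 ± 0.13 (SE, adjusted p = 0.00447). At pnd2 its arrays read 4383, 4446 and 3892, all above gd18. These values come from a probe set ending in _x_at, which marks possible matches to other transcripts. Other probe sets of the gene read -0.516, -0.447, -0.357, -0.344 and 0.275 from gd12 to gd18. From gd18 to pnd2 they read 0.454, 0.381, -0.106, -0.00167 and -0.102, so the direction depends on the probe set.

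Among the 26 tested accessory subunits, 4 fell from gd12 to gd18 (15.4%, where 10.2% of all genes fell) and 0 rose, and 10 of 26 fell with pnd2 replicate 3 left out (20.1% of all genes). From gd12 to gd14 the counts were 0 with that array and 8 without it (5.74 and 14.1% of all genes fell). Ndufb7 had 5024, 4403 and 5005 at gd12, 4562, 4221 and 3878 at gd14, 2787, 3086 and 2952 at gd16, 2946, 3093 and 3214 at gd18 and 4324, 4488 and 5483 at pnd2. Its gd14 arrays overlapped gd12 and its gd16 arrays lay below all of gd14. Its change from gd12 to gd18 was -0.64 ± 0.13 (SE, adjusted p = 0.00318). The other changes over this span were -0.65 ± 0.22 (SE, adjusted p = 0.0462) in Ndufa9, -0.50 ± 0.16 (SE, adjusted p = 0.0335) in Ndufb8 and -0.67 ± 0.23 (SE, adjusted p = 0.0494) in Ndufab1, the mitochondrial acyl carrier protein.

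Ndufa12 ran differently: 5628, 5809 and 4726 at gd12, 4257, 4311 and 4232 at gd14, 2893, 3924 and 3076 at gd16, 5653, 5911 and 5852 at gd18 and 6629, 6203 and 5925 at pnd2. The gd18 arrays all lay above those of gd16, a rise of 0.83 ± 0.14 (SE, adjusted p = 0.0227). Other bright probe sets of the gene read changes of 0.38 and 0.31 for the same interval, and a dim one -0.24. All 3 bright sets have names ending in _s_at or _x_at, which marks possible matches to other transcripts. Without them the change is -0.243.

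From gd12 to pnd2, 3 of the 26 tested accessory subunits rose, Ndufa1, Ndufa2 and Ndufb6, and 1 fell. Over all genes 14.4% rose and 13.1% fell in this comparison. Ndufa2 had 5076, 4852 and 3886 at gd12 and 6718, 5847 and 14185 at pnd2, a change of 0.85 ± 0.27 (SE, adjusted p = 0.0296), and 0.45 ± 0.17 (SE, adjusted p = 0.045) without pnd2 replicate 3, its highest array. Ndufb6 had 4346, 4962 and 4156 and 5790.4, 5093 and 9545, a change of 0.55 ± 0.19 (SE, adjusted p = 0.0436) that was not called in 19 of 25 alternatives. Ndufa1, on the X chromosome, went from 15467, 13240.0 and 11477 to 18110.5, 16467 and 21339.6, 0.48 ± 0.13 (SE, adjusted p = 0.0135). Ndufa9 went the other way over the same span, from 7354, 7690.1 and 7311 to 6054, 5890.2 and 2892, a change of -0.67 ± 0.22 (SE, adjusted p = 0.0366) that was -0.32 ± 0.11 (SE, adjusted p = 0.0345) without pnd2 replicate 3.

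The assembly factors of complex I help build the enzyme and are not part of it. All 8 changes from gd12 to gd14 were negative, with a median of -0.47. Of the 8, 1 passed the test (5.74% of all genes fell), or 3 with pnd2 replicate 3 left out (14.1%). To gd18, 2 of 8 fell (10.2% of all genes), or 5 without that array (20.1%). Ndufaf6 read 361, 654 and 450.5 at gd12 and 240.2, 271 and 242 at gd14, -0.88 ± 0.26 (SE, adjusted p = 0.0367), and 218, 236 and 236 at gd18, -0.996 ± 0.26 (SE, adjusted p = 0.0117). These were not called in 10 and 1 of 25 alternatives, and without gd12 replicate 14 they were -0.653 and -0.771. Ndufaf2 fell from 919.7, 1054 and 963 at gd12 to 406, 569 and 416 at gd18, -1.07 ± 0.25 (SE, adjusted p = 0.00653), which was called in all 25 alternatives. Its gd14 arrays, at 713, 593 and 556, lay below all of gd12 and overlapped gd18. At pnd2 it read 761, 555 and 1233, of which replicate 3 exceeded every other array.

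Complex II oxidises succinate and is also an enzyme of the citric acid cycle. Sdha, its flavoprotein, had 9793, 10159.7 and 9968 at gd12, 6559.7, 6912 and 7908 at gd14, 7406, 7478 and 7276 at gd16, 8047, 5933 and 7331 at gd18 and 8092, 6543 and 8774 at pnd2. All 3 arrays of each later stage lay below gd12, with changes of -0.49 ± 0.14 (SE, adjusted p = 0.0341) at gd14 and -0.50 ± 0.14 (SE, adjusted p = 0.0189) at gd18, and no trough at gd16. Another bright probe set of Sdha read -0.27 and -0.277 for these comparisons, and a dim one 0.203 and 0.132. The 2 changes were not called in 9 and 3 of 25 alternative analyses. Sdhb, the iron-sulphur subunit, had 4241, 3792 and 4049 at gd12, 3613, 3731 and 3091 at gd14, 2905, 3261 and 3058 at gd16, 2860.1, 2912 and 2727 at gd18 and 3594, 3831 and 3415 at pnd2. Its gd18 arrays lay below all of gd12, and the change was -0.50 ± 0.13 (SE, adjusted p = 0.00991), called in all 25 alternatives.

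The membrane anchors Sdhc and Sdhd were not called with all arrays. With pnd2 replicate 3 left out Sdhd fell to gd14, -0.51 ± 0.15 (SE, adjusted p = 0.0199). A dimmer probe set of Sdhd, ending in _x_at, read 0.128 over this interval. From gd18 to pnd2, with all arrays, it read 0.867, against -0.214 for the set used, so the direction depends on the probe set. Sdhc had 1171, 1158 and 1278 at gd12, 1266, 1197 and 1146 at gd14, 1072, 1180.1 and 911 at gd16, 1032, 1189.8 and 1285 at gd18 and 1268, 1453 and 181 at pnd2, so that a single array, pnd2 replicate 3, lay far below the rest. Sdhd had 2896, 2323 and 2809.8 at gd12, 2194, 1507 and 1954 at gd14, 2472, 2382 and 1818 at gd16, 2295, 2052 and 2005.7 at gd18 and 2405, 2887 and 864 at pnd2, with the same array lowest. Without pnd2 replicate 3, all 4 complex II changes from gd18 to pnd2 were positive, with a median of 0.27, against -0.04 with it.

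Complex III, the bc1 complex, passes electrons from ubiquinol to cytochrome c. All 8 subunits tested were lower at gd16 than at gd14 and 7 of 8 had their lowest mean at gd16, though none of the 8 passed the test in that interval with all arrays. From gd12 to gd14, 0 of 8 fell, and 4 with pnd2 replicate 3 left out (5.74 and 14.1% of all genes fell). Uqcrq had 1854, 1644 and 1736 at gd12, 1364, 1100.2 and 1385 at gd14, 871, 914 and 838 at gd16, 1112, 1056 and 1259.9 at gd18 and 1176, 1036 and 1606 at pnd2. The gd16 arrays lay below all others, and its gd18 change from gd12 was -0.61 ± 0.18 (SE, adjusted p = 0.0232). That change was not called in 6 of 25 alternatives. Uqcrc1, a core structural subunit, read 1650.4, 1256 and 295 at pnd2 against 1352, 1436 and 1197 at gd18, with replicate 3 again far below. Uqcr10, a small subunit, read 388, 486 and 1541 at pnd2, with the same array far above.

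Cytochrome c had the largest change of the 83 members from gd12 to gd18. Cycs, which carries electrons between complexes III and IV and also takes part in apoptosis once released, had 13040.1, 15690.5 and 11471 at gd12, 7223, 7617 and 7236 at gd14, 5153, 5450.0 and 5553 at gd16, 5387, 6452 and 4557 at gd18 and 8286, 9009.9 and 14178 at pnd2. All 9 arrays of gd14 to gd18 lay below the 3 of gd12. Its changes were -0.85 ± 0.19 (SE, adjusted p = 0.00823) to gd14 and -1.29 ± 0.19 (SE, adjusted p = 0.000207) to gd18, a 2.45-fold fall, and both were called in all 25 alternatives. From gd18 to pnd2 it rose by 0.91 ± 0.19 (SE, adjusted p = 0.0481), and by 0.67 ± 0.14 (SE, adjusted p = 0.027) without pnd2 replicate 3. That rise was not called in 18 of the 25 alternatives, although its 3 pnd2 arrays lay above all of gd18. The other bright probe sets of Cycs gave -1.21 and -0.80 at gd14. The NRF1 letters lie in its promoter window, printed above.

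**Figure D3:**
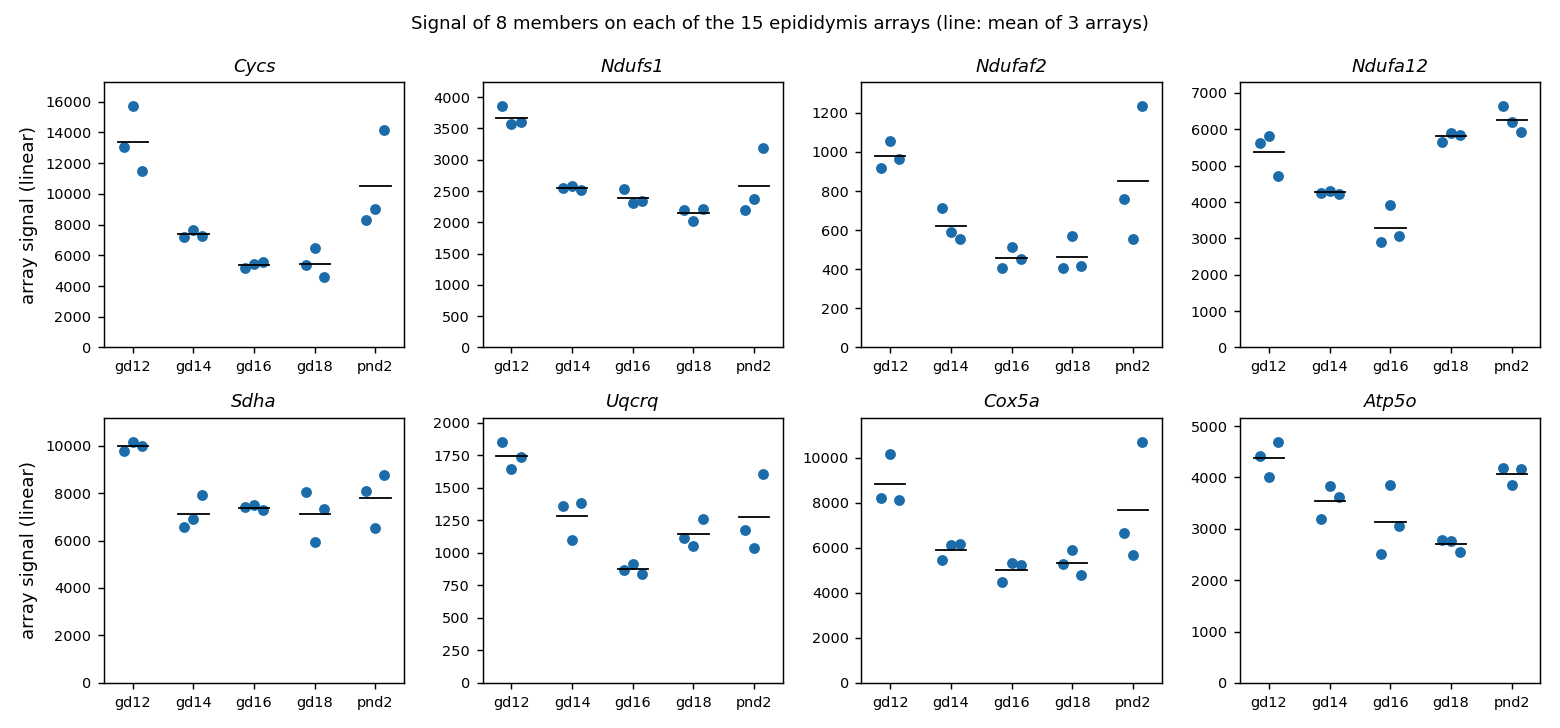
Linear array signal (y axis, from 0) of Cycs, Ndufs1, Ndufaf2, Ndufa12, Sdha, Uqcrq, Cox5a and Atp5o on the 15 epididymis arrays by stage (x axis); points are arrays and lines means of 3 arrays. Cycs starts between 11471 and 15690.5, falls to 4557 to 7617 at gd14 to gd18 and reaches 8286 to 14178 at pnd2, while the Ndufa12 gd18 arrays sit at 5653 to 5911, all above its gd16 arrays.

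Complex IV reduces oxygen to water. Of its 10 broadly expressed subunits tested, 9 had negative changes from gd12 to gd14 and all 10 from gd14 to gd16, and none passed the test in either interval with all arrays. Leaving out pnd2 replicate 3, 3 of 10 fell to gd14 (Cox5a, Cox6a1 and Cox7a2), where 14.1% of all genes fell. From gd12 to gd18 it was 7 of 10 (20.1% of all genes), rather than 2 with all arrays (10.2% of all genes). With all arrays the 2 that fell to gd18 were Cox5a, a subunit around the catalytic core, and Ndufa4, long counted with complex I. Cox5a read 8209.8, 10186 and 8122 at gd12, 5456, 6125 and 6152 at gd14, 4491, 5312 and 5215 at gd16, 5262, 5909 and 4793 at gd18 and 6667, 5666 and 10709.8 at pnd2. Its gd18 change was -0.73 ± 0.20 (SE, adjusted p = 0.015), and 2 other bright probe sets gave -0.99 and -0.98. Ndufa4 went from 4088, 3732 and 4018 to 2715, 2776 and 3009.6, -0.48 ± 0.13 (SE, adjusted p = 0.0174).

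Cox6c rose from gd12 to pnd2, from 9344, 9148 and 7924 to 12511, 10301 and 20109.9, 0.64 ± 0.19 (SE, adjusted p = 0.0211), with its highest array again pnd2 replicate 3 and 0.37 ± 0.12 (SE, adjusted p = 0.0245) without it. Cox4i1 read 16445, 14748 and 14558 at gd12, 12052, 11461 and 11206 at gd16 and 16584, 16886 and 21879.8 at pnd2, lowest at gd16. Cox6a1 and Cox7a2 stood out on pnd2 replicate 3, at 10645, 12027 and 28152 and 11454, 13753 and 36916 at pnd2. Cox6b1 did not: 20674, 21236 and 16589.8.

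Of the 8 tissue or oxygen-related forms, 6 were too dim in the epididymis to be tested, and Cox6b2 and Cox8c passed. Cox6a2, the heart and skeletal muscle form of Cox6a, ran from 38.5 to 209 on the 15 arrays. Cox7a1, the muscle form of Cox7a, ran from 6.84 to 122, and Cox8b from 4.16 to 83.2. Among the broad forms, Cox6a1 ran from 7517 to 28152 and Cox8a from 239.7 to 544, with other probe sets whose brightness is not comparable. The highest arrays of Cox6a2 and Cox8b were the same one, pnd2 replicate 2, at 209 and 83.2, on which the muscle genes Acta1 and Myh3 read 1991 and 2532. Cox4i2, induced at low oxygen in lung, ran from 4.02 to 112. Ndufa4l2, a partner of Ndufa4 known from low oxygen, read 239, 89.2 and 318 at gd18 and 17.5, 17.3 and 43.3 at pnd2, and lay above the array median on fewer than 3 arrays. Cox6b2, known from testis, rose from 216, 92.2 and 105 at gd12 to 234, 231 and 353 at pnd2, 0.97 ± 0.31 (SE, adjusted p = 0.0315). Its highest array was pnd2 replicate 3, and without it the call was lost, 0.78 ± 0.32 (SE, adjusted p = 0.0736).

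**Figure D4:**
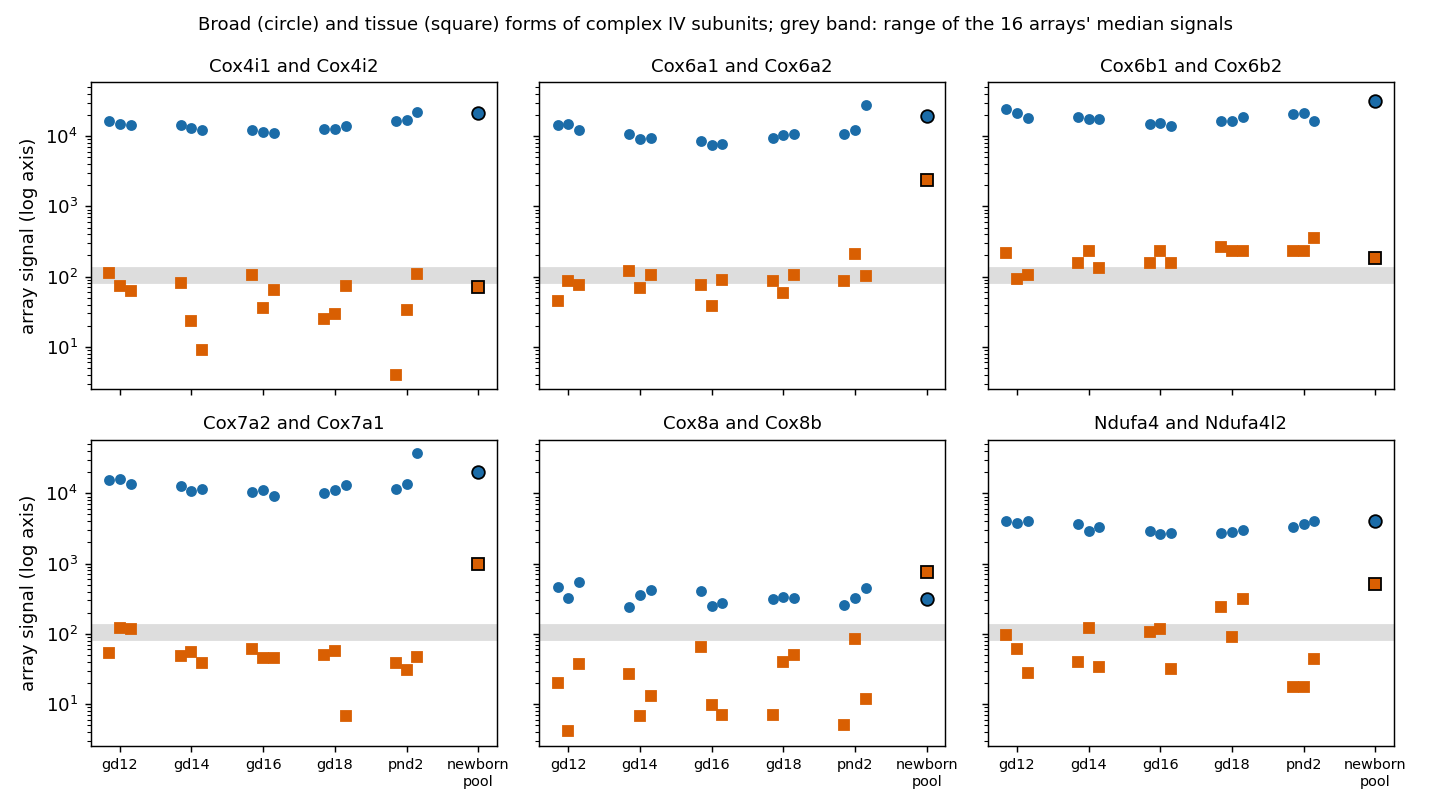
Array signal on a log axis (y axis) of 6 pairs of complex IV subunits, broad form (circles) and tissue form (squares), by stage and in the newborn pool (x axis, outlined symbols); the grey band spans the medians of the 16 arrays. Each series is read along the stages, since levels of different probe sets are not comparable. Cox6a2, Cox7a1 and Cox8b lie near or below the band in the epididymis and reach 2379, 973 and 753 in the newborn pool.

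Complex V makes ATP in its F1 head and conducts protons through its Fo part. Values differed among the 5 genes of the head. Atp5a1 (alpha) read 22097, 20593 and 17354 at gd12 and 22152, 20049.7 and 20264 at gd18 and was not called in any comparison, while Atp5c1 (gamma) fell from 16427, 13941 and 15397 at gd12 to 11988, 10910.4 and 10390.0 at gd14 and 11074, 10806 and 11764 at gd18. The Atp5c1 changes were -0.46 ± 0.11 (SE, adjusted p = 0.011) and -0.44 ± 0.11 (SE, adjusted p = 0.00839), from a probe set ending in _s_at. A dimmer probe set of the gene read 0.28 and 0.43 for these comparisons, so the direction depends on the probe set. Atp5b (beta, catalytic) read 16866, 16453 and 16006 at gd12, 11638, 13004 and 11837 at gd14, 12285, 11036 and 11439 at gd16, 11566, 10027 and 10637 at gd18 and 12721, 12790.0 and 2835 at pnd2. Its gd14 to gd18 arrays lay below all of gd12, and the difference at gd18 was -0.62 ± 0.39 (SE, adjusted p = 0.3) with pnd2 replicate 3 in the fit and -0.62 ± 0.08 (SE, adjusted p = 3.11e-05) without it.

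Among the 12 Fo and stalk genes, Atp5o, the oligomycin-sensitivity subunit that joins both parts, fell from 4414, 4014 and 4695 at gd12 to 3197, 3828 and 3616, 2511, 3849.5 and 3051 and 2776, 2767 and 2549 at gd14, gd16 and gd18, and read 4189, 3853 and 4172 at pnd2. Its gd18 change of -0.69 ± 0.16 (SE, adjusted p = 0.00519) was called in all 25 alternatives. A second probe set gave -0.57. Of the other 11, none passed the test with all arrays, but with pnd2 replicate 3 left out 5 fell from gd12 to gd18, Atp5g1, Atp5j, Atp5j2, Atp5mpl and Atp5pb. In all of complex V, 2 of 17 fell over this span with that array (11.8%, near the 10.2% of all genes). Without it 8 of 17 fell (47.1%, against 20.1% of all genes). For Atp5g1, 1 of 3 genes for the proton-carrying c subunit, the difference was -0.88 ± 0.35 (SE, adjusted p = 0.0852) with all arrays and -0.88 ± 0.31 (SE, adjusted p = 0.0328) without that array, and for Atp5g3, another, -0.20 ± 0.10 (SE, adjusted p = 0.156).

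Replicate 3 of pnd2 differed by 3.271 in Ndufa6 and by -2.801 in Sdhc, the extremes of the 83, on the log2 scale from the mean of replicates 1 and 2. At least 2-fold higher were 20 of 83 members (24.1%) and at least 2-fold lower 11 (13.3%), against 12.4% and 23.7% of all genes tested. The median shift was 0.87 in the 26 accessory subunits of complex I and -0.85 in the 4 subunits of complex II, and -0.12 over all genes tested. Its part in each pnd2 result, beyond the values without it given here, was not tested.

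**Figure D5:**
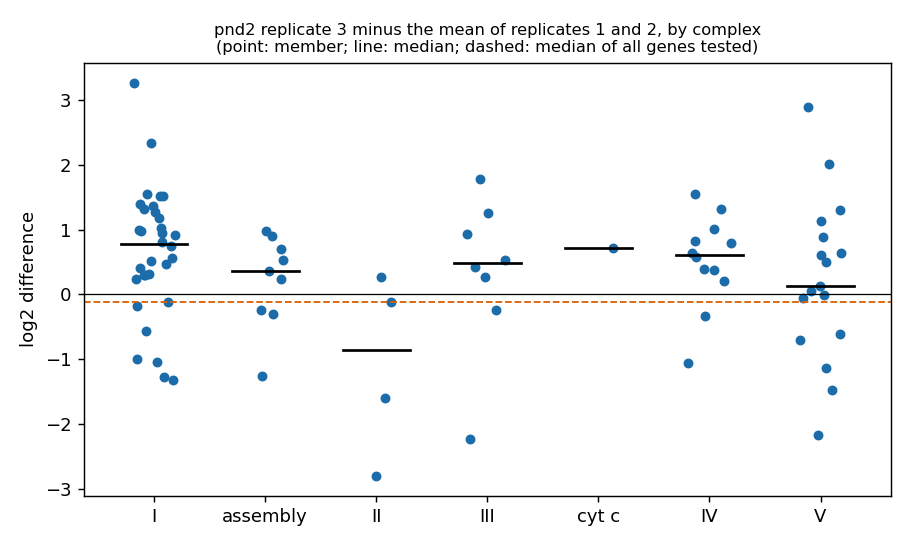
Log2 difference of pnd2 replicate 3 from the mean of replicates 1 and 2 (y axis) for each of the 83 tested members, by complex (x axis); lines are medians and the dashed line is the median of all genes tested, -0.12. Complex I members lie mostly above 0 (median 0.78 over 32 subunits) and complex II members mostly below.

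The other mitochondrial genes, from lists chosen with earlier results of these data known, are given as counts, beside the 5.74% of all genes that fell to gd14 and 10.2% to gd18 with all arrays, and 14.1% and 20.1% without pnd2 replicate 3. From gd12 to gd14, 7 of 76 genes of the mitochondrial ribosome fell and 0 rose, with a median of -0.38, and from gd12 to gd18, 20 of 76 fell and 0 rose, with a median of -0.49. Of the 76, 9.21% and 26.3% thus fell, and without pnd2 replicate 3 the counts were 28 and 48. Mrpl15, a large-subunit protein, fell by 1.05 to gd18 (± 0.16 SE, adjusted p = 0.000333), and Mrpl40 by 1.03 to gd14 (± 0.20 SE, adjusted p = 0.00386). Of 21 genes of protein import, 5 fell to gd14 and 7 to gd18 (11 and 16 without pnd2 replicate 3), among them Hspa9, the matrix motor chaperone, by 0.66 (± 0.14 SE, adjusted p = 0.00661) to gd14. Of 41 assembly factors outside the rule, 4 fell to gd14 (8 without that array), including Lrpprc, which stabilises mitochondrial messengers, by 0.76 (± 0.18 SE, adjusted p = 0.0114).

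Among 9 carriers and channels, 3 fell and 1 rose to gd14. Slc25a5, an ADP/ATP exchanger, fell by 0.82 (± 0.18 SE, adjusted p = 0.00748) and Vdac3, an outer membrane channel, by 0.77 (± 0.15 SE, adjusted p = 0.0028) to gd14. Of 18 citric acid cycle genes, 2 fell to gd18 (13 with pnd2 replicate 3 left out) and 1 rose, Pdha1 of pyruvate dehydrogenase, by 0.88 (± 0.13 SE, adjusted p = 0.000229). Of 18 fatty acid oxidation genes 1 fell to gd14 (5.56%, near the share of all genes), or 6 without that array. Of 21 regulators of mitochondrial biogenesis, 1 rose and 0 fell to gd14, and 2 rose and 2 fell to gd18, where 16 of 21 changes were negative with a median of -0.23. With pnd2 replicate 3 left out 2 fell to gd14 and 5 to gd18. Ppargc1b rose to gd14 by 1.08 (± 0.25 SE, adjusted p = 0.01) and Esrrg to gd18 by 1.11 (± 0.26 SE, adjusted p = 0.0066). Tefm, a factor of mitochondrial transcription elongation, fell by 1.101 (± 0.33 SE, adjusted p = 0.0258) to gd18 and Polg, the mitochondrial DNA polymerase, by 0.64 (± 0.18 SE, adjusted p = 0.0197). From gd12 to pnd2, 1 of the 21 rose and 3 fell (14.4 and 13.1% of all genes). Without pnd2 replicate 3 it was 2 and 6 (18.7 and 17%). With all arrays Esrrg rose by 1.66 (± 0.26 SE, adjusted p = 0.000295). Ppargc1a, a coactivator of respiratory genes, fell by 1.17 (± 0.31 SE, adjusted p = 0.0118), and Pprc1 and Polg were the others that fell.

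Of 20 glycolysis genes 1 rose and 2 fell from gd12 to gd14, where 6.71% of all genes rose and 5.74% fell. Without pnd2 replicate 3 it was 3 and 6 (15.7 and 14.1% of all genes). From gd18 to pnd2, where 72 of 83 oxidative phosphorylation changes were positive, 4 of 20 glycolysis genes fell and 0 rose, with a median of -0.96. Over all genes 0.335% fell and 0.261% rose, with a median of -0.05. Without pnd2 replicate 3, 9 of 20 fell with a median of -0.64, against 1.13% of all genes and a median of 0.007. Ldha, lactate dehydrogenase A, read 18524, 18354 and 18190.1 at gd18 and 9827, 6558 and 3265 at pnd2, a fall of 1.62 (± 0.28 SE, adjusted p = 0.0229). The pnd2 arrays lay below all of gd18. Slc2a1, a glucose transporter, fell by 1.14 (± 0.21 SE, adjusted p = 0.0304) and Pgam1 by 1.02 (± 0.16 SE, adjusted p = 0.0129).

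A single mitochondrially encoded subunit, ND5 of complex I, was on the array under 1 symbol. It read 12579.6, 10078 and 8198 at gd12, 9041, 9945 and 8865 at gd14, 10811, 10159.7 and 12369 at gd16, 9145, 8636 and 8928 at gd18 and 10372, 11142 and 18816 at pnd2, with its lowest stage mean at gd18, and was not called in any of the 6 comparisons. The supercomplex factor Cox7a2l read 10794, 11444 and 9685 at gd16 and 15965, 19899 and 14522 at pnd2, with a difference from gd12 to pnd2 of 0.48 ± 0.18 (SE, adjusted p = 0.055), and 0.58 ± 0.17 (SE, adjusted p = 0.0167) without pnd2 replicate 3.

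Markers of other cells moved in the same interval as the first fall. From gd12 to gd14, 5.74% of all genes fell and 6.71% rose. In that interval 6 of 8 germ cell markers fell, and summed signals over 9 markers went from 13611 to 20594 at gd12 to 1597 to 2129 at gd14. Dazl and Ddx4, which define germ cells, were at 1216, 2611 and 2086 and 557, 1718 and 1413 at gd12 and at 61.7, 24.5 and 3.36 and 49.1, 19.4 and 6.5 at gd18. Of 8 testis somatic markers 5 fell, and the other 3 had positive changes, up to 2.309, that were not called. Their summed signals over 10 markers were 4347 to 7569 at gd12 and 1435 to 2828 at gd14. Of 6 erythroid markers tested, 2 fell to gd14, the globins Hbb-bh1 and Hba-x, and 1 rose. The riser was another globin, Hbb-b2, by 2.14 (± 0.41 SE, adjusted p = 0.00292). Erythroid markers summed to 42333.5 to 65089 at gd12, 26830 to 36740 at gd14 and 779 to 1698 at gd18 (8 markers).

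Of 11 proliferation genes 7 fell to gd14 (5.74% of all genes fell), and their summed signal was 73725 to 79652 at gd12 and 49142 to 50599.5 at gd14. Macrophage markers rose in 7 of 9, from 2169.8 to 5049 at gd12 to 9051 to 10912 at gd14, and epithelial markers in 5 of 12 (6.71% of all genes rose). Of 8 smooth muscle markers 3 rose to gd14 (5 without pnd2 replicate 3, where 15.7% of all genes rose). To gd18 all 8 rose, where 12.7% of all genes rose, and the median change of the markers was 3.08. Their summed signal went from 5158 to 7178 at gd12 to 13599 to 18687 at gd14 and 51108.5 to 52392 at gd18. The part of these in the changes of the oxidative phosphorylation genes was not tested.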

How the data were processed

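RNA of 15 epididymis samples (5 stages, 3 arrays each) and 1 newborn pool was amplified in 2 rounds, per the labels' protocols. The deposited values are linear intensities of each probe set, which the authors made with GCOS, the Affymetrix scanner software, per the submitters' processing notes. Neither its version nor its algorithm is stated in the labels. Amplification from the 3' end makes signals depend on where a probe set lies. Of 45101 probe sets, 34945 had 1 symbol, 932 several and 9160 were not listed in the annotation. Among the 932, 10 list a member together with other symbols and were left out.

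Values were taken as log2(signal + 16), and folds are on that scale. Probe sets that reached the median of the array in 3 or more of the 15 epididymis samples were kept (25981), and each gene took its brightest kept probe set (12239 genes). The comparison of stages used limma 3.58.1 (R 4.3.3), with 1 mean per stage, an intensity trend in the variance and Benjamini-Hochberg adjustment within each of 6 comparisons. A gene is called at an adjusted p under 0.05. With 3 arrays a stage, their number limits the precision, and p-values measure only the spread between these samples. The fit was tested on simulated data, drawn with 1 spread per gene on all arrays. That test does not cover an outlying array such as pnd2 replicate 3. The newborn array entered no test.

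Named with array values are, per complex and comparison, up to 2 called members with the largest change each way, Cycs, the Sdh genes and the complex IV isoform pairs, and for other lists up to 3 called genes each way. Further members were named after their values were seen. Members and lists were chosen with earlier results of these data known. Alternatives covered normalization, the added constant, the filter, the choice of probe set, array weights, the arrays fitted and leaving out each array.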

Additional observations from a re-analysis of the deposited data

Results flagged for a closer look

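In the array of pooled whole newborns, which entered no comparison, 3 muscle forms of complex IV subunits read at least 4 times the highest epididymis array and above that array's own median of 134. Cox6a2 read 2379 in the newborn pool, 11.4 times its highest epididymis value of 209. Cox8b read 753, 9.05 times its highest of 83.2, and Cox7a1 read 973, 7.99 times its highest of 122. The pool held every tissue of the animal. All 18 skeletal and heart muscle markers and 7 of 8 brown and white fat markers lay at or above the median there. Summed signals of the muscle markers were 267055 in the pool and 1045 to 18912 on the epididymis arrays. Those of the fat markers were 46610 and 409 to 1317, with 1 of 8 at or above the median on each epididymis array. The tissue behind the 3 signals was not tested. With 1 array there is no replicate check. Of the 91 members, 38 read above every epididymis array in the pool, 4 below every one and 49 within their range.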

How the results depend on the processing

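Of 744 alternative values of the counts and complex medians, 657 stayed within 1.5 times the count or 1 SD between arrays, and 87 moved. That SD comes from the arrays of the 2 stages compared, so in pnd2 comparisons it includes pnd2 replicate 3. Some medians within it changed sign without that array. For pnd2 against gd12, complex I went from 0.176 to -0.0491, complex III from 0.0776 to -0.0102 and complex IV from 0.0266 to -0.216. Complex II went from -0.0392 to 0.267 for pnd2 against gd18. Of 575 for named changes, 453 kept their call, 119 kept the direction only and 3 reversed. These 3 came from avoiding probe sets ending in _x_at or _s_at: Ndufa12 from gd16 to gd18 at -0.243, and Atp5c1 at 0.276 for gd14 and 0.429 for gd18 against gd12. Leaving out 1 array gave 2 to 32 members called for gd14 against gd12, 0 to 2 for gd16 against gd14, 0 to 1 for gd18 against gd16, 0 to 6 for pnd2 against gd18, 10 to 43 for gd18 against gd12, 1 to 18 for pnd2 against gd12 and 18 to 50 in the F test. Array quality weights gave 24, 7, 8, 35, 16 and 49 members (gd14 against gd12, gd16 against gd14, pnd2 against gd18, gd18 against gd12, pnd2 against gd12, F test). Fits to only the arrays compared gave 27, 2, 0, 37 and 0 for the same 5 pairs. Without pnd2 replicate 3, gd14 replicate 10 and gd16 replicate 9 together, 27, 38, 17 and 45 were called for gd14, gd18 and pnd2 against gd12 and in the F test. Median centring gave 3 for gd14 against gd12, 0 for gd18 against gd16 and 0 for pnd2 against gd18, and moved the median of all genes in the last from -0.05 to 0.19 and for pnd2 against gd12 from -0.07 to 0.08. No filter gave 3 for gd14 against gd12 and 0 for pnd2 against gd18, constants of 1 and 64 gave 0 and 2 for the latter, and the mean of all probe sets gave 0 for it and 0 for gd18 against gd16, as did avoiding _x_at and _s_at sets in the last. Complex medians moved as follows. With quantile normalization, complex I read -0.25 and complex V -0.205 for gd14 against gd12, and complex V 0.0516 for gd18 against gd16 and -0.182 for pnd2 against gd12. With median centring, complexes I, II and V read -0.401, -0.508 and -0.375 for gd18 against gd12, complexes III and V 0.508 and 0.504 for pnd2 against gd18, and complex V -0.357 for gd14 and 0.0532 for pnd2 against gd12. Without the 3 arrays, complex II read -0.0658 for pnd2 against gd12 and complex V 0.145 for pnd2 against gd18. Leaving out 1 array gave -0.57 to -0.0658 (complex II, pnd2 against gd12), -0.223 to -0.173 (complex IV, gd16 against gd14), and for complex V 0.0349 to 0.143 (gd18 against gd16), 0.145 to 0.393 (pnd2 against gd18) and -0.119 to 0.0108 (pnd2 against gd12). The causes were not tested. No paired analysis was possible because replicate numbers run on over the series and stages share none. Dim probe sets limit the isoforms: 8 members were below the filter.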
